A study of Homo sapiens with 3 samples.

Results

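A group of 450 short regions marked by acetylation of histone H3 at lysine 27 (H3K27ac), each touched by a peak of the acetyltransferase CREBBP, is described here. They were chosen from a deposited list of 18263 H3K27ac regions on chromosomes 1 to 22 and X as those of 523 bp or less, the width that the narrowest 10% did not exceed, that shared at least 1 bp with a deposited CREBBP peak. The list held 1832 regions of that width, so 450 held CREBBP and 1382 did not. Both lists came from chromatin immunoprecipitation with sequencing (ChIP-seq) in SC1, an established human line of DLBCL (diffuse large B-cell lymphoma) by its labels. The series holds 3 samples of this line, 1 in each group, namely CREBBP ChIP, H3K27ac ChIP and input without an antibody. No drug, genotype change or time point is named in the labels, while DMSO and rep2 appear in the peak names without further explanation. Peak lists of both ChIP samples were used, and the input library was not analysed here.

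H3K27ac sits on nucleosomes beside active promoters and enhancers, usually as a block that spans several nucleosomes. CREBBP is recruited by transcription factors, has no DNA-binding specificity of its own, and together with its relative EP300 writes this mark. In B-cell lymphoma the CREBBP gene is often mutated, and the enhancers it acetylates include those that switch germinal-centre genes. A short marked region has room for only a few nucleosomes, so CREBBP and the mark can be compared there at close to the resolution of the assay.

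The width limit and the overlap chose these regions. Widths, overlaps and the values of both lists are therefore given as descriptions, with no test. Each sample stands alone, so no value has a replicate error. Shares carry exact Clopper-Pearson 95% intervals. Medians carry 95% intervals from order statistics. Intervals of a ratio of medians divide the lower bound of one by the upper bound of the other, and the reverse. They are therefore wider than 95% intervals of the ratio would be. All of these cover counting error only and treat regions as independent. Positions are on hg19 and counted from 1, and no gene was assigned to them, because the gene table at hand was of another assembly.

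Fewer of the short regions than of the wider ones held CREBBP. The share was 450 of 1832, 24.6% (22.6 to 26.6%), against 51.7% of the 16431 regions above the limit and 49.0% of all regions. Below the limit the share did not rise with width. It was 27.3% (22.9 to 32.02%) at 257 to 300 bp, 24.6% (19.9 to 29.8%) at 301 to 345 bp, 23.5% (20.1 to 27.1%) at 346 to 434 bp and 23.8% (20.3 to 27.6%) at 435 to 523 bp. These intervals overlap. The share was 26.1% at 524 to 600 bp and 31.3% at 601 to 700 bp, and from there it climbed with width to 90.3% above 5000 bp. Regions with CREBBP at the limit and just beyond it numbered 3 each, too few to compare. The 3 members of exactly 523 bp had H3K27ac folds of 1.89, 5.25 and 6.63, and the 3 regions of 524 bp with CREBBP had folds of 8.13, 8.65 and 1.93.

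Per length of marked chromatin, listed CREBBP peaks covered short regions to about the same extent as wider ones. CREBBP peaks covered 16.4% of the summed length of the 1832 short regions and 15.8% of the length of the wider ones. Counted by summit, the highest point of a peak, short regions had 265 summits in 697 kb, or 0.380 per kb (exact Poisson 95% interval 0.336 to 0.429). Regions of 524 to 1000 bp had 0.352 per kb (0.330 to 0.375), and those above 5000 bp had 0.236 (0.225 to 0.248). The interval of the short regions overlaps that of the next wider band but lies above that of all wider regions together, 0.299 per kb (0.293 to 0.305). Summits of peaks with a q-value of at most 0.05 did not follow this order. They numbered 36 in the short regions, 0.0517 per kb (0.0362 to 0.0715), against 0.0627 (0.06001 to 0.0654) in the wider ones. The lower share of short regions with a peak thus stood beside a similar coverage per base.

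**Figure D1:**
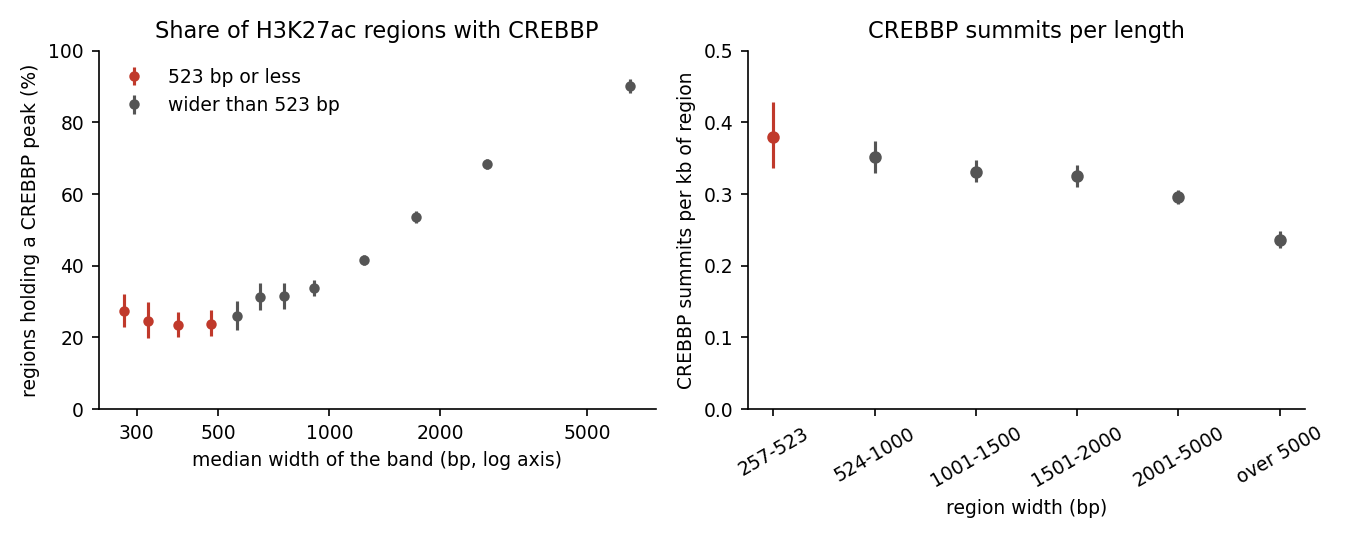
Left, the share of H3K27ac regions that held a CREBBP peak (percent) against the median width of 12 width bands (bp, log axis). Right, CREBBP summits per kb of H3K27ac region in 6 width bands. Points are shares or rates, bars are exact 95% intervals, red marks 523 bp or less and grey marks wider regions. The 4 red shares lie between 23.5 and 27.3%, while the red rate of 0.380 per kb is the highest of the 6.

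CREBBP peaks covered the short regions more often than the sequence around them. At the midpoints of the 1832 short regions, with and without CREBBP together, a peak covered 324, or 17.7% (15.96 to 19.5%). Averaged over positions from 1 to 2 kb away it covered 3.03%, and from 3 to 5 kb away 3.11%. Regions of 524 to 1000 bp gave 18.7% (17.4 to 19.996%) at the midpoint and 2.38% at 3 to 5 kb. The upper 50% of short regions by H3K27ac fold had 19.8% at the midpoint (17.2 to 22.5%) and the lower 50% had 15.6% (13.3 to 18.1%), so their intervals overlap. Around wider regions the midpoint is a poorer guide, since those above 5000 bp had only 12.99% there.

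**Figure D2:**
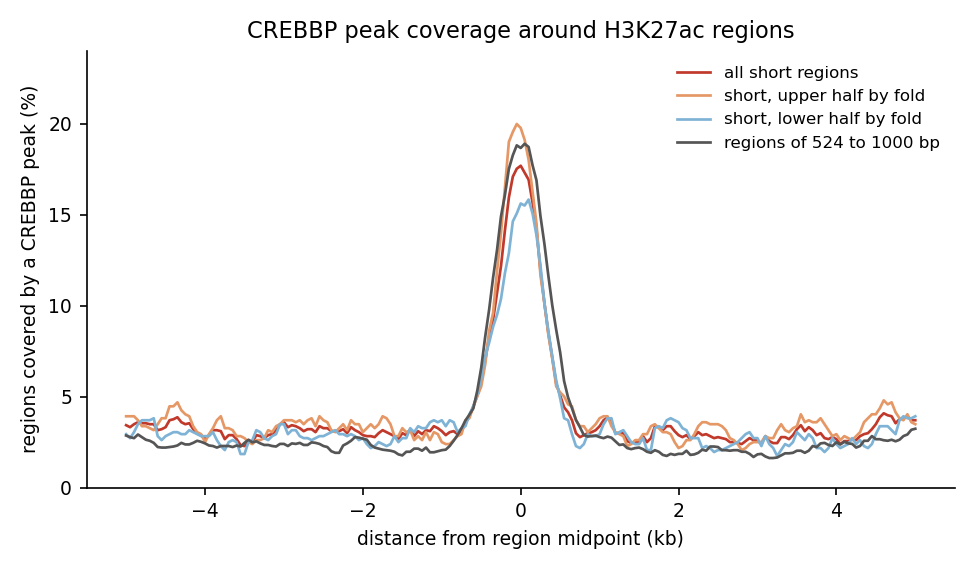
Share of H3K27ac regions covered by a CREBBP peak (percent) against distance from the region midpoint (kb), in steps of 50 bp, for all 1832 short regions, for their upper and lower 50% by H3K27ac fold, and for regions of 524 to 1000 bp. All 4 curves peak within 100 bp of the midpoint and are lower from 1 to 5 kb, where single positions of all short regions lie between 2.29 and 4.09%.

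Nearly every member carried a single CREBBP peak. One member held 2, and none held 3 or more, giving 451 pairs of a region and a peak. Among the wider regions with CREBBP, of a median width of 1845.5 bp, 17.6% held 2 or more. The width limit of 523 bp left little room for 2 peaks, since the narrowest CREBBP peak was 248 bp wide. These shares were not adjusted for width. In 296 of the 451 pairs (65.6%) the CREBBP peak was wider than the marked region. The peak enclosed the whole region in 111 pairs (24.6%), lay wholly inside it in 33 (7.32%) and overlapped it in part in 307 (68.1%). The median overlap was 263 bp (interquartile range 169.5 to 327.5), or 72.7% of the region. Overlaps of 50 bp or less accounted for 23 pairs. On the other side of the overlap limit, 51 of the 1382 short regions without CREBBP had a peak within 200 bp.

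The CREBBP summit lay inside the region in 265 pairs, 58.8% (54.1 to 63.3%), against 95.7% on wider regions. These shares were not adjusted for region width. Of all member summits, 151 were within 100 bp of the region midpoint (33.5%). The median distance to the midpoint was 153.5 bp (139.5 to 171.5). The 186 summits outside were close by, at a median of 93 bp beyond the edge (interquartile range 41.3 to 161 bp). They did not lean to the side of the next H3K27ac region, since 87 of 186 lay on that side, 46.8% (39.4 to 54.2%). With a next region within 5 kb the count was 20 of 50. No CREBBP peak bridged a member and another H3K27ac region (0 of 451), but few could have, since H3K27ac regions lay at least 1029 bp apart. Another region lay within 1500 bp of only 23 of 450 members, and CREBBP peaks on members had an upper quartile of width of 602.5 bp.

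CREBBP values with the summit inside and outside were close. Median CREBBP fold was 2.34 (2.25 to 2.44) with the summit inside and 2.29 (2.15 to 2.46) with it outside. Peaks with a CREBBP q no higher than 0.05 numbered 36 of 265 and 25 of 186, or 13.6% and 13.4%. The median H3K27ac fold was higher with the summit inside, 5.26 (4.48 to 5.84), than outside, 4.36 (3.54 to 5.10), with overlapping intervals.

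Fold enrichment of H3K27ac, the ratio of ChIP signal to expected background that the authors deposited for each region, was spread more widely in short regions than in wider ones. Members ran from 1.06 to 51.6, with a median of 4.78 (4.28 to 5.36) and an interquartile range of 2.57 to 8.84. Short regions without CREBBP ran from 1.00 to 57.4, with a median of 4.20 (3.98 to 4.46) and an interquartile range of 2.29 to 7.69. The member median was 1.14 times the other (0.960 to 1.35), and the intervals overlap. With only the 265 regions that held the CREBBP summit counted as holding CREBBP, the ratio was 1.25 (1.004 to 1.46). Wider regions had a median of 4.97 and an interquartile range of 3.19 to 7.94. Short regions made up 10.03% of the list, yet they were 43 of the 100 regions of lowest fold and 24 of the 100 of highest fold. Of those 24, CREBBP was present in 9, 37.5% (18.8 to 59.4%), and of the 76 wider regions among the highest 100 it was present in 41, 53.9% (42.1 to 65.5%). The interval of the 24 takes in the 24.6% of all short regions.

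Members were found at both ends of this range. A fold of 12.04 or more, reached by 10.0% of all regions, was reached by 64 of 450 members, 14.2% (11.1 to 17.8%). It was reached by 10.6% of short regions without CREBBP (8.99 to 12.3%) and by 9.15% of wider regions with CREBBP (8.55 to 9.79%). The member interval lies above that of the wider regions and overlaps that of the short ones. A fold under 2 was seen in 63 members, 14.0% (10.9 to 17.6%), in 18.3% of short regions without CREBBP (16.3 to 20.4%) and in 4.56% of wider regions with CREBBP (4.12 to 5.02%). H3K27ac q exceeded 0.05 in 12 members, 2.67% (1.39 to 4.61%), and in 3.11% of short regions without CREBBP (2.26 to 4.17%). It did so in 0.353% of wider regions with CREBBP and in 0.652% of all regions.

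Read the other way, the share with CREBBP was highest among the most strongly marked short regions. In 5 equal groups of short regions by H3K27ac fold, it was 21.3% (17.2 to 25.8%) in the lowest, between 24.04% and 24.3% in the next 3 and 29.2% (24.6 to 34.1%) in the highest, which began at a fold of 9.18. The intervals of the lowest and highest groups overlap. Median width in these groups ran from 372 to 382.5 bp, without order. Wider regions cut at the same folds gave 44.1, 49.4, 53.1, 55.5 and 50%. Their median widths rose and fell in the same order, at 1160, 1457, 1652.5, 1679 and 1467.5 bp. Shares of wider regions climbed with width and were not adjusted for it here, so the 2 patterns over fold cannot be compared. Within widths of 257 to 345 bp the median fold was 5.24 in members and 4.31 in short regions without CREBBP. At 346 to 434 bp it was 4.68 and 4.01, and at 435 to 523 bp it was 4.27 and 4.37, with overlapping intervals in each band. The width of members, a median of 366.5 bp (360 to 382), was also close to that of short regions without CREBBP, 380 bp (373 to 387).

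The 5 members of highest H3K27ac fold carried CREBBP peaks of ordinary size for members, whose peaks had a median fold of 2.33. The highest, 51.6, was a region of 356 bp at chromosome 2 from 33064107 to 33064462, which lay wholly under a CREBBP peak of 407 bp with a fold of 2.01. The next 2 were each other's nearest H3K27ac region. At chromosome 11 from 61276278 to 61276681 the H3K27ac fold was 45.1 and the CREBBP fold 1.88. From 61263157 to 61263646, 12.6 kb away, they were 44.1 and 2.67. That at chromosome 12 from 109058065 to 109058522 had an H3K27ac fold of 37.3 and a CREBBP fold of 2.67. Last, at chromosome 3 from 167492274 to 167492575, were folds of 32.3 and 2.11. None of these 5 CREBBP peaks reached a q of 0.05, which only 13.6% of all members did. The 3 short regions without CREBBP of highest fold had 57.4 at chromosome 2 from 32853207 to 32853666, 35.4 at chromosome 13 from 34374038 to 34374418, and 35.0 at chromosome X from 9133191 to 9133612. The nearest CREBBP peak to the last of these was 162 bp away, and to the first it was 23.3 kb away.

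**Figure D3:**
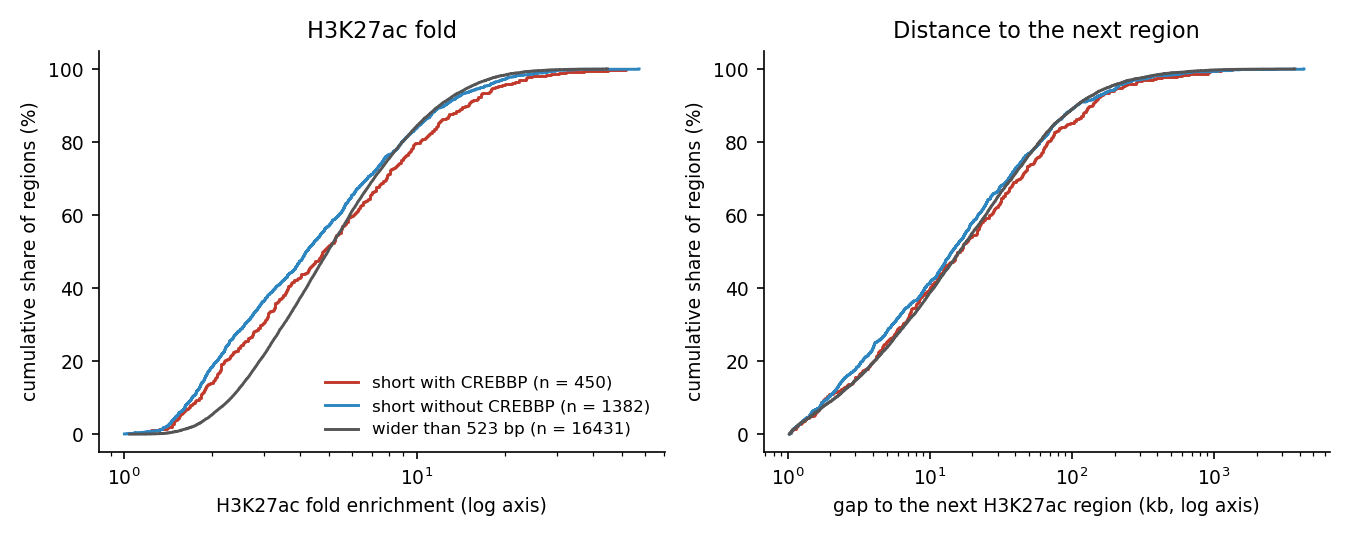
Cumulative share of regions (percent) by H3K27ac fold (left, log axis) and by the gap to the next H3K27ac region (right, kb, log axis) for the 450 members (red), the 1382 short regions without CREBBP (blue) and the 16431 wider regions (grey). On the left both short groups start lower than the wider regions, with 14.0 and 18.3% under a fold of 2, and with 14.2 and 10.6% at 12.04 or above. On the right the 3 curves nearly coincide, with medians of 16.3, 14.3 and 16.2 kb.

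The distance to the next H3K27ac region was much the same with and without CREBBP. Members were a median of 16.3 kb from another region (12.6 to 21.3 kb), with an interquartile range of 4.96 to 54.7 kb. Short regions without CREBBP were a median of 14.3 kb away (12.9 to 16.1 kb), with a range of 4.13 to 44.9 kb, and all wider regions 16.2 kb. No regions in the list lay closer together than 1029 bp, so none of the short regions had a listed neighbour within 1 kb. A next region within 12500 bp, a distance often used for joining regions into domains, was present for 201 of 450 members, 44.7% (40.01 to 49.4%), against 46.3% of short regions without CREBBP (43.7 to 48.98%) and 44.1% of all regions. More than 50 kb from any other region lay 118 members, 26.2% (22.2 to 30.5%), and 23.1% of the short regions without CREBBP (20.9 to 25.4%). Of all regions, 23.5% lay that far, which the member interval takes in. Short regions more than 100 kb from any other held CREBBP in 67 of 220 cases, 30.5% (24.4 to 36.998%), the highest share of 6 distance bands. The lowest was 20.8% (16.4 to 25.8%) at 2 to 5 kb, and these intervals overlap.

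Most members, like most other regions, were not satellites of large domains. After joining regions within 12500 bp, 249 members stood alone (55.3%), against 53.7% of short regions without CREBBP and 56.1% of wider regions. In the widest 5% of joined domains lay 39 members, 8.67% (6.24 to 11.7%). Short regions without CREBBP lay in such domains in 7.81% of cases (6.45 to 9.36%) and wider regions in 13.9% (13.4 to 14.5%). A region's own length counts toward its domain, and these shares were not adjusted for width. The nearest neighbour of a member had a median width of 1450.5 bp and a median H3K27ac fold of 5.06 (4.58 to 5.48). The neighbours of short regions without CREBBP had 1399 bp and 4.66 (4.43 to 4.91). A member had a lower fold than its neighbour in 49.3% of cases (44.6 to 54.1%), so about as many members were stronger than their neighbour as weaker. For short regions without CREBBP it was 53.6% (50.9 to 56.3%), and the intervals overlap.

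The nearest region to a member held CREBBP itself in 244 of 450 cases, 54.2% (49.5 to 58.9%). It did so in 675 of 1382 cases for short regions without CREBBP, 48.8% (46.2 to 51.5%), and for 49.4% of all regions. The intervals overlap. Among members with a region within 5 kb it was 62 of 113, 54.9% (45.2 to 64.2%). Among members whose nearest region was more than 50 kb away it was 60 of 118, 50.8%. For members, the distance to the next CREBBP peak beyond the one on the region was also taken. Its median distance was 4.43 kb (3.85 to 4.89), and the nearest CREBBP peak to a short region without CREBBP was 5.76 kb away (5.36 to 6.08). A peak within 5 kb was found for 251 members, 55.8% (51.1 to 60.4%), and for 44.8% of the others (42.1 to 47.5%). These measures are unlike, since the overlapping peak was set aside for members only, and the same peak list chose the members. The difference is therefore a description only. Within 1 kb the order turned, at 10.4% (7.78 to 13.6%) and 13.97% (12.2 to 15.9%), with overlapping intervals. The peak on a member, of a median width of 439 bp, takes up part of that space, and its effect was not tested.

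Runs of members with no other H3K27ac region between them and gaps within 50 kb numbered 9 and held 21 members. The rest of the members stood singly or beside other kinds of region. The longest runs held 3 members. One lay on chromosome 17 from 29248860 to 29288147 with H3K27ac folds of 1.20 to 1.90, one on chromosome 12 from 14538036 to 14556914 with 2.49 to 2.98, and one on chromosome 8 from 59770834 to 59827430 with 5.49 to 6.83. None of these 3 runs held an H3K27ac fold above 10, and the pair of highest fold was the one on chromosome 11 described above.

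The most isolated members included strong and weak ones. The farthest, at chromosome 1 from 191143575 to 191143960, was 1342 kb from the next region and had an H3K27ac fold of 3.23 and a CREBBP fold of 2.81. Its nearest region was itself a member of 364 bp. The next 3 were 1125 kb away at chromosome 12 from 38710533 to 38711031, 972 kb away at chromosome 5 from 103568241 to 103568535, and 944 kb away at chromosome 17 from 9478776 to 9479161. Their H3K27ac folds were 3.11, 2.95 and 10.3. The last, at chromosome 2 from 16790145 to 16790410, was 909 kb away with a fold of 11.6. Not 1 of their 5 CREBBP peaks passed a q of 0.05, but only 13.6% of all members did, and 5 peaks are too few to set apart.

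The 5 members nearest to another region had H3K27ac folds from 3.25 to 23.6. They are too few to compare their spread with that of the farthest. Those at chromosome 12 from 111527741 to 111528033, chromosome 5 from 124258877 to 124259144 and chromosome 5 from 56029844 to 56030223 had gaps of 1045, 1055 and 1057 bp. Their H3K27ac folds were 3.25, 23.6 and 9.41. Those at chromosome 5 from 43040727 to 43041121 and chromosome 14 from 61965778 to 61966162 had gaps of 1064 and 1069 bp and folds of 15.04 and 13.7. The neighbour had the lower fold in 4 of these 5 pairs, the exception being the one with a gap of 1064 bp. The narrowest member, of 257 bp at chromosome 1 from 64178957 to 64179213, is as narrow as any region in the list, yet had an H3K27ac fold of 22.3. It was enclosed by a CREBBP peak of 846 bp whose summit lay outside it. The member with 2 CREBBP peaks, named here after its values were seen, was at chromosome 9 from 22208774 to 22209292. Its H3K27ac fold was 7.004, and its next region was 1156 bp away.

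CREBBP peaks on short regions held fewer fragments over a lower background than those on wider regions. The number of fragments at a summit and the background there were solved from the fold and p that the authors deposited, and are inferences. The median was 10 fragments (10 to 11) over a background of 3.70 (3.597 to 3.71), against 17 (17 to 17) over 7.33 (6.87 to 7.39) on wider regions. The CREBBP fold was higher on short regions, with a median of 2.33 (2.25 to 2.41) against 2.15 (2.149 to 2.163), a ratio of 1.08 (1.04 to 1.12). A q of at most 0.05 was reached less often. It was met in 61 of 450 members, 13.6% (10.5 to 17.1%), against 23.9% (22.99 to 24.8%) of wider regions with CREBBP and 23.4% of all regions with CREBBP. Of all CREBBP peaks, 1.81% met it. These shares were not adjusted for the number of peaks on a region. A −log10 q of 0 was given for 212 of the 451 peaks on members, 47.01%. The lower quartile of −log10 q was 0 on wider regions as well, with medians of 0.041 on members and 0.196 on wider regions.

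At like background most of this difference was gone. At the lowest background, 1.3 fragments, the median fold was 3.04 on short and on wider regions. It was 2.88 and 2.81 from there to 2 fragments, and 2.65 on both from 2 to 3. From 3 to 5 it was 2.27 (2.14 to 2.34) and 2.34 (2.34 to 2.38). From 5 to 10 it was lower on short regions, 1.97 (1.87 to 2.03) against 2.145 (2.143 to 2.149). In that band 8 of 116 peaks on short regions had a q of at most 0.05, 6.90% (3.02 to 13.1%), against 21.9% (20.6 to 23.3%) on wider regions. This was the only 1 of the 7 bands in which the intervals of these shares did not overlap. On short and wider regions the share was 13.95 and 11.5% in the lowest band, 15.6 and 16.7% from there to 2 fragments, and 18.3 and 17.3% from 2 to 3. It was 12.6 and 18.01% from 3 to 5 fragments, 25 and 21.8% from 10 to 20, and 1 of 3 peaks against 32.2% from 20 to 50. The bands on short regions hold few peaks, and their intervals are wide. At 10 to 20 fragments the folds were 1.85 (1.70 to 2.07) and 1.88 (1.87 to 1.89). The higher pooled fold on short regions thus went with their low backgrounds, since 41.9% of their peaks and 15.99% of those on wider regions had a background of 3 or less.

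**Figure D4:**
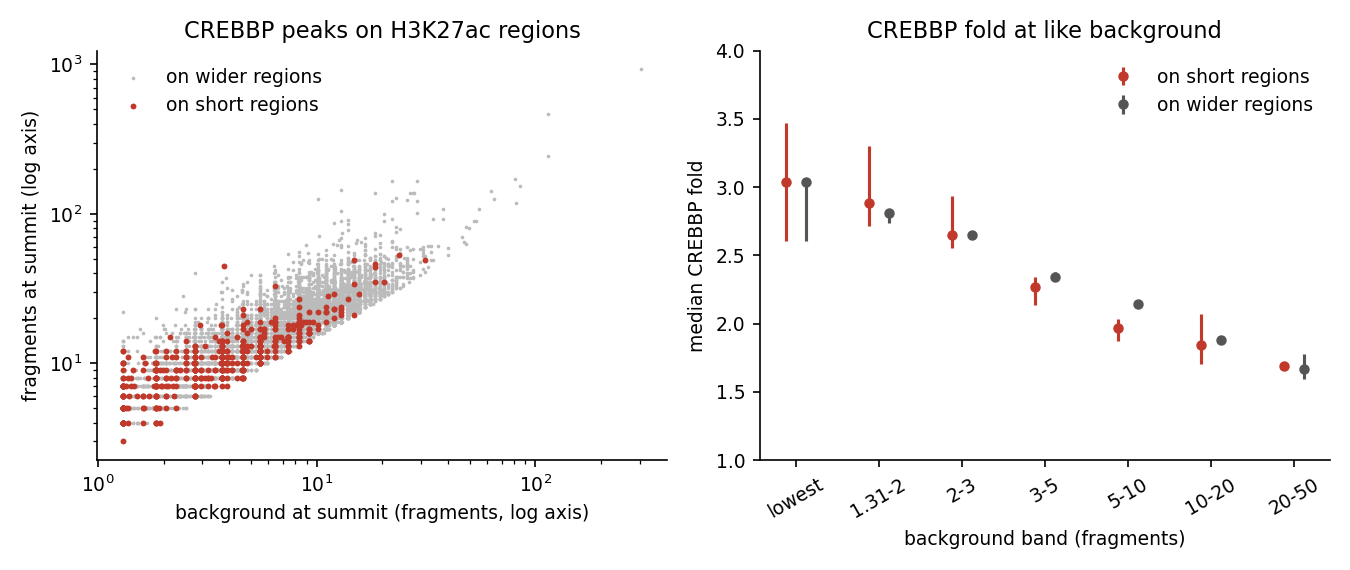
Left, fragments at the summit against background at the summit (both in fragments, log axes) for the strongest CREBBP peak of each of 450 short regions (red) and all 10452 peaks on wider regions (grey). Right, median CREBBP fold with 95% order-statistic intervals in 7 background bands (the highest has 3 peaks on short regions and no interval). Red points crowd at the lower left, and in the first 6 bands the intervals overlap except at 5 to 10 fragments, where the medians are 1.97 and 2.145.

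The strongest CREBBP peak on a short region stood far from the rest. It was at chromosome 17 from 8076752 to 8077269, where 45 fragments over a background of 3.76 gave a fold of 9.67 and a −log10 q of 27.9. The H3K27ac fold of this region was only 2.75, and another H3K27ac region was 1611 bp away. The next folds were 5.64 at chromosome 1 from 192485649 to 192486012 and at chromosome 22 from 23337309 to 23337789, each from 12 fragments over 1.3. Their H3K27ac folds were 2.09 and 9.21. The region at chromosome 19 from 50073738 to 50074024 had a CREBBP fold of 5.11 and an H3K27ac fold of 4.01, and that at chromosome 13 from 47029858 to 47030200 had 5.05 and 22.4. Ranked by q, the next 4 were others. They lay at chromosome 7 from 150132522 to 150133037, chromosome 21 from 48118953 to 48119378, chromosome 9 from 100174356 to 100174658 and chromosome 2 from 98698188 to 98698572. Their −log10 q values were 9.04, 7.75, 5.40 and 5.08, and their H3K27ac folds were 5.10, 26.2, 1.90 and 8.40. Strong CREBBP peaks thus occurred on weakly and on strongly marked short regions.

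Ranks of H3K27ac fold and CREBBP fold were nearly unrelated over the 450 members, at a Spearman rho of 0.058 and a Pearson r of 0.010. The rho of H3K27ac fold with CREBBP fragments was -0.032, and that of gap to the next region with CREBBP fold was -0.0041. Region width and CREBBP fragments had a rho of 0.14. These are descriptions across regions of the same pair of libraries. The 61 members with a CREBBP q of at most 0.05 had a median H3K27ac fold of 4.95 (3.805 to 7.25), and the other members had 4.76 (4.21 to 5.50). Their median gap was 10.9 kb (8.06 to 22.4 kb), and that of the others was 16.6 kb (12.7 to 21.5 kb). Neither pair of intervals is apart.

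Members lay on all 23 chromosomes, from 3 on chromosome 21 to 49 on chromosome 1. The share of short regions with CREBBP was lowest on chromosome 19, where 11 of 90 held one, 12.2% (6.26 to 20.8%). Elsewhere it was 439 of 1742, 25.2% (23.2 to 27.3%). The next lowest were chromosomes 22 and X at 16.3 and 19.05%, and the highest were chromosomes 13 and 12 at 31.6 and 31.2%. Chromosome 19 was also lowest among wider regions, at 43.8% (40.8 to 46.9%), where the other chromosomes ran from 46.1 to 57.1%. Chromosome 7, with the most CREBBP peaks per Mb of any chromosome at 108, had a share of 22.9%. Over the 23 chromosomes the number of CREBBP peaks per Mb and the share of short regions with CREBBP had a Spearman rho of 0.44 and a Pearson r of 0.36. Chromosome 19 was singled out after its value was seen.

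**Figure D5:**
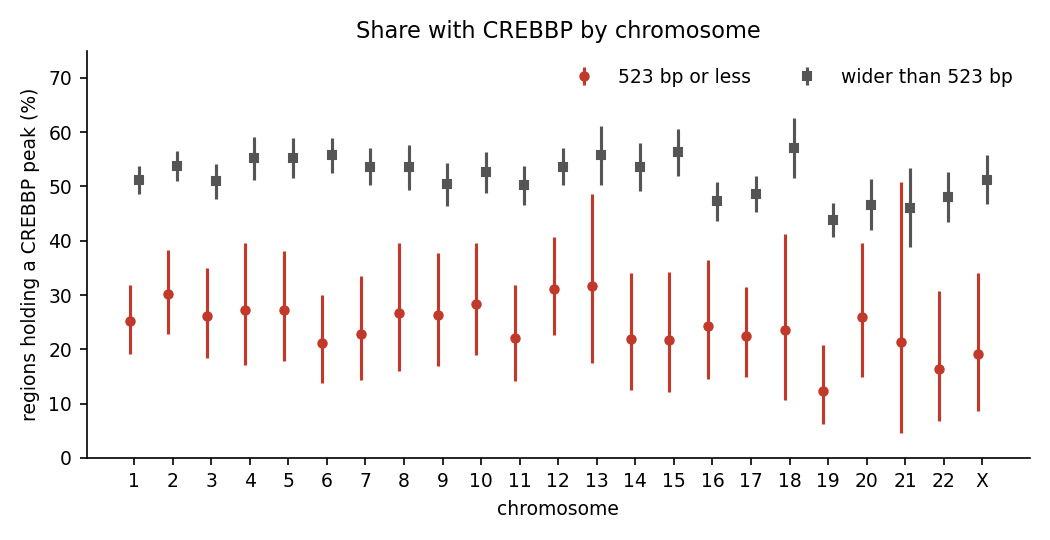
Share of H3K27ac regions that held a CREBBP peak (percent, with exact 95% intervals) on each chromosome, for regions of 523 bp or less (red circles) and wider ones (grey squares). Chromosome 19 has the lowest point of both kinds, at 12.2 and 43.8%.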

How the data were processed

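The members and comparisons were chosen with earlier results of these data known. The tools named in the submitters' processing notes are MACS2, STAR, Bowtie2 and fastp, with the build hg19. For their roles and versions, the control library and any pooling the entry is: not given in the sources used here. The authors deposited narrow CREBBP peaks and broad H3K27ac regions, each with a fold enrichment (a ratio), −log10 p, −log10 q and a score. CREBBP peaks go down to a −log10 p of 1.30, with no limit on q. Scores were not used. The 128 CREBBP peaks and 17 H3K27ac regions on other chromosomes were left out. Depth is not stated in the lists.

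Regions and peaks counted as overlapping from 1 bp. Gaps run from edge to edge. Fragments n and background b were solved from fold = (n + 1)/(b + 1) and an upper Poisson tail, and a whole n matched p within 0.001 for all 451 peaks on members. On simulated data for short regions, overlap, summit position and gap were right in 2000 of 2000, and fragments on peaks in 1000 of 1000, made with the assumed formula. Named positions were, by a fixed rule, the 5 members highest in H3K27ac fold, CREBBP fold and CREBBP q, the 5 farthest and 5 nearest, the narrowest, those at the limit and just beyond, those with 3 or more CREBBP peaks, and the 3 short regions without CREBBP of highest fold. Any others were chosen after their values were seen. Alternatives changed the overlap, thresholds, width limit and distance. Motif and sequence comparisons were not analysed here. Python 3.11.15, numpy 2.4.6, pandas 2.3.3, scipy 1.17.1 and matplotlib 3.10.9 were used.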

Additional observations from a re-analysis of the deposited data

How the results depend on the processing

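The share of short regions with CREBBP, 24.6%, followed the definition of overlap. It was 14.5% with the summit inside, 19.1% with an overlap of 50% of the shorter interval, 19.8% with the upper 50% of CREBBP peaks by p and 3.33% with CREBBP peaks of q at most 0.05, an alternative chosen after seeing the data. Fewer peaks or a stricter overlap can only lower it. The ratio of H3K27ac fold, members over short regions without CREBBP, ran from 0.977 (the widest of 3 width bands) to 1.25 (summit inside, interval 1.004 to 1.46) around 1.14 (0.960 to 1.35). The ratio of gaps, 1.14 (0.784 to 1.65), stayed between 1.01 and 1.21 except with that same added limit on CREBBP q. There it was 0.735 (61 members), with an interval of 0.488 to 1.67 that takes in 1.14. The difference between these ratios was not tested. The share within 12500 bp of another region differed between members and short regions without CREBBP by -1.64 percentage points, and by -3.38 to 5.08 under the alternatives. The ratio of widths was 0.964, and 1.01 with the summit inside. Short over wider regions, the ratio of CREBBP fold, 1.08, was 1 at a background of 1.3, 1.03 to 2 fragments, 1 from 2 to 3, 0.968 from 3 to 5, 0.918 from 5 to 10, 0.982 from 10 to 20 and 1.01 from 20 to 50, where only 3 peaks lay on short regions. No paired analysis was possible because there was 1 sample per group.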

Other observations

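A background above 15 fragments at the CREBBP summit was seen in 7 members, chosen after their values were seen. Of these, 4 lay within one stretch of chromosome 1, the first from 228755196 to 228755545 and the last from 228781967 to 228782352. The highest background was 31.4 fragments, at chromosome 1 from 228761889 to 228762232, where 49 fragments gave a CREBBP fold of only 1.54. The other 3 of the stretch had backgrounds of 23.8, 18.5 and 18.5 and −log10 q values of 3.004, 2.82 and 3.53, so these were among the 61 members with a CREBBP q of at most 0.05. Their H3K27ac folds were 10.8, 3.26 and 7.11. Without the 7 members, the ratio of median gaps, members over short regions without CREBBP, was 1.15 against 1.14 with them.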
